A study of Homo sapiens with 6 samples.

Results

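The genes described are 32 regulators and transcriptional targets of the tumour suppressor p53, taken as a named list, out of 63140 genes in the deposited counts. The gene encoding p53 is not on the list and was not analysed here. All 32 were found, and 31 had enough counts to be tested. The 1 exception was SPATA18, which encodes a protein of mitochondrial quality control and had 0 counts in all 6 libraries, a depth that allows up to 0.0294 CPM (counts scaled to the library total), which is 3 counts over all libraries and covers counting error only. The samples were 3 libraries of NOZ, an established human gallbladder carcinoma line, and 3 of NOZ-R, derived from NOZ by growth in rising steps of gemcitabine, a nucleoside analogue used in chemotherapy, until the cells tolerated it. Whether NOZ-R is 1 clone, and whether the drug was present when RNA was taken, is not given in the sources used here. Poly-A RNA was sequenced to between 14136037 and 19244923 counts per library. The labels do not say that the 3 libraries of a line came from separate cultures. The p-values therefore measure only how much these libraries vary, and that variation may be technical.

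The labelled cell type was checked against its markers. Keratins KRT8, KRT18, KRT19 and KRT7 lay between 247.7 and 1127 CPM on average in both lines, whereas the epithelial cadherin CDH1 was near 1.03 CPM in NOZ against 0.290 CPM in NOZ-R. Summed over 7 fibroblast markers the level was 3.10 to 3.59 CPM in NOZ against 6.77 to 7.19 CPM in NOZ-R. COL1A2, DCN, LUM and THY1 had 0 counts in NOZ and at most 37 counts over the NOZ-R libraries, and COL3A1 had 19 counts over NOZ and 155 over NOZ-R (edgeR's adjusted p = 4.38e-05). The sum of 5 leukocyte markers was 3.21 to 5.69 CPM and 4.16 to 5.51 CPM, with the pan-leukocyte PTPRC at 49 counts over NOZ and 11 over NOZ-R. The sum of 4 endothelial markers was 2.38 to 2.70 CPM in NOZ against 9.07 to 10.2 CPM in NOZ-R, most of it PECAM1, with VWF and KDR at no more than 4 counts over either line. The part of these signals in the values below was not tested, and in bulk RNA fewer cells of a type cannot be told apart from less RNA per cell.

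The p53 protein is a transcription factor held at a low level by the ubiquitin ligase MDM2 and its partner MDM4, and DNA damage releases it from them. It then raises genes that stop the cell cycle, repair DNA, alter metabolism or start cell death, and it raises MDM2 itself, which closes a feedback loop. Gemcitabine is built into DNA and stalls replication, a form of damage to which cells with working p53 commonly respond through this pathway.

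Sequences near the start sites that match the p53 binding motif are shown first, so that the changes can be read beside them. The p53 motif is a run of 10 bases, made of 3 purines, C, 2 bases that are A or T, G and 3 pyrimidines, and 2 such runs with a short spacer make an element. It reads as the same motif on both strands. RefSeq (GRCh38.p14) gave 42 start windows for 27 of the 32 genes, and the 250 bases before each start were searched. An exact 10-base match was present in 6 of these 27 genes, 22.2%, against 6.80% of the 27305 genes with a window, and in 14.3% of the windows of the list against 5.57% of all 35116. The 6 genes are shown with the best pair of motifs in capitals and the remaining bases in lower case, 5′ to 3′ on the strand of the gene. MDM2 is added outside the rule that chose these genes, because the element before its internal promoter is a textbook p53 site.
MDM2, chr12:68808908-68808957, plus strand, intron: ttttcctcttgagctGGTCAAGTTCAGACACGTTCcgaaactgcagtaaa
FAS, chr10:88991309-88991328, plus strand: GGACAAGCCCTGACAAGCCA
AEN, chr15:88621306-88621325, plus strand: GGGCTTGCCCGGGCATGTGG
FDXR, chr17:74872996-74873025, minus strand: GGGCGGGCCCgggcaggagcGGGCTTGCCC
PLK2, chr5:58460196-58460218, minus strand: AGACTTGCTTcccGGCCACGCGC
SESN1, chr6:109009003-109009052, minus strand, intron: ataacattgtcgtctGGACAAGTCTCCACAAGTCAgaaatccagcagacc
RPS27L, chr15:63157527-63157546, minus strand: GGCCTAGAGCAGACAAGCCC
The pairs in MDM2, FAS, AEN and FDXR departed from the motif at 2 of 20 bases, those in PLK2, SESN1 and RPS27L at 3. Only the MDM2 and SESN1 stretches lay clear of annotated exons (GENCODE 29), so only they are shown with 15 flanking bases. Of these 7 genes, MDM2, AEN and PLK2 were higher in NOZ-R, and FAS, FDXR, SESN1 and RPS27L did not pass the test. Among all tested genes 30.4% were higher and 29.8% lower, 60.2% in all. A match is a description of the letters and not evidence of binding in these cells.

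Comparing NOZ-R with NOZ asks which p53 regulators and targets differ between the resistant line and its parent. The list did not move as a block. CDKN1A, GADD45A, PLK2 and DRAM1 were higher by 2.11-fold to 11.2-fold, and CCNG1, CYFIP2 and TP53TG1 fell to between 0.400 and 0.481 of their level in NOZ. Long-known targets such as ZMAT3, SESN1, RPS27L and PLK3 lay within 0.05 of 0 on the log2 scale. Of 31 tested, 10 passed the test as higher and 7 as lower, and 14 did not pass (edgeR's quasi-likelihood test, Benjamini-Hochberg adjusted p below 0.05 over all 14386 tested genes). Among all tested genes 30.4% were higher and 29.8% were lower, 60.2% in all, so 17 of 31, or 54.8%, is near the background. The median log2 fold change was 0.06 for the list and -0.01 for all tested genes. The 2 lines did not overlap in CPM for 12 genes with NOZ-R above (32.9% of all tested genes) and 8 with NOZ-R below (32.4%, and 65.3% for both together). Tested against a 2-fold change, 4 of the genes passed upward, CDKN1A, GADD45A, EDA2R and DRAM1, and none downward, where 5.89% and 3.07% of all tested genes passed (8.96% in all). Of these, EDA2R had enough counts to be tested through NOZ-R alone, so it could be called only as higher. With scaling by library size alone, which shifts the median log2 fold change by -0.13, the split was 8 higher and 10 lower, against 23.1% and 38.0% (61.1% in all) of all tested genes.

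**Figure D1:**
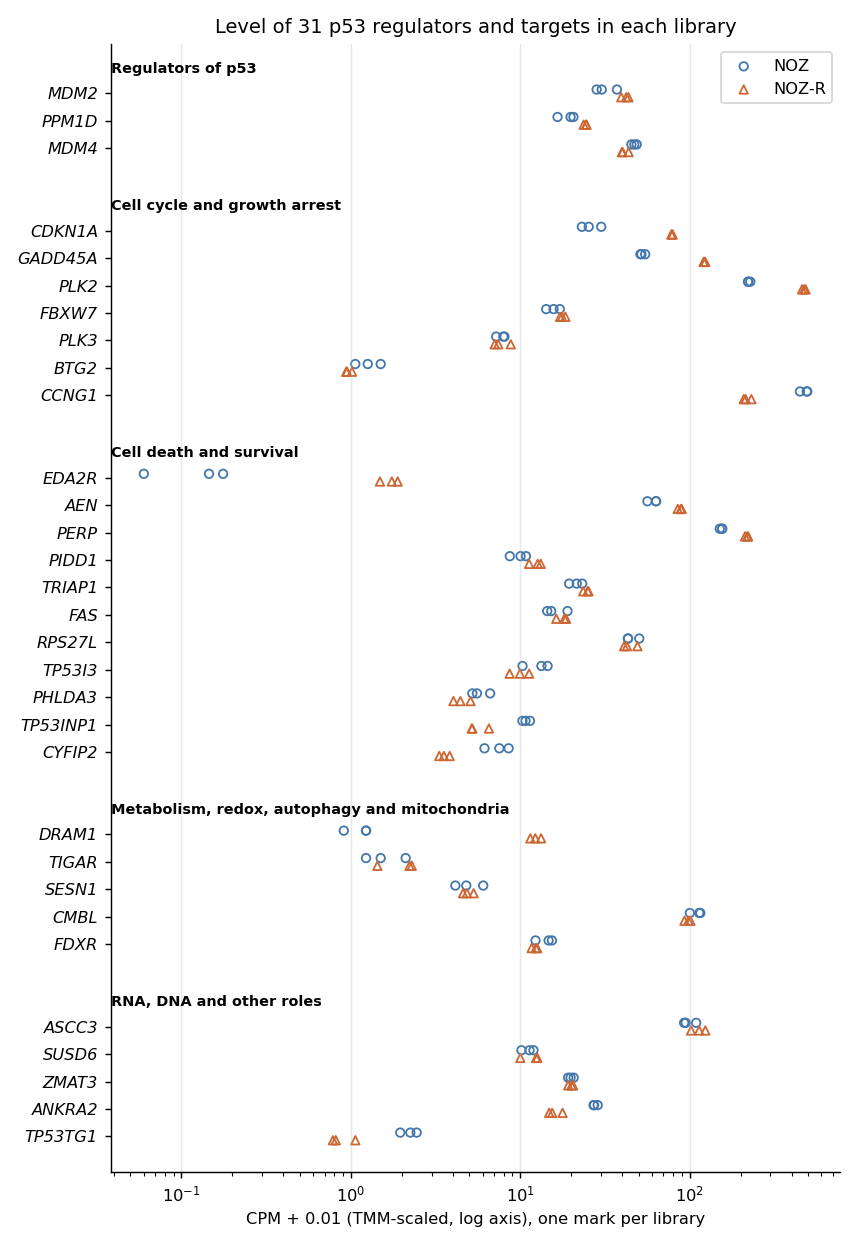
Level of the 31 tested genes in each library, grouped by role. The horizontal log axis gives CPM plus 0.01, circles are the 3 NOZ libraries and triangles the 3 NOZ-R libraries. CDKN1A, GADD45A, PLK2, DRAM1 and EDA2R stand apart to the right in NOZ-R, and CCNG1 to the left, while ZMAT3 and PLK3 lie on top of each other in both lines.

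Among the regulators of p53, MDM2 and PPM1D were slightly higher in NOZ-R and MDM4 slightly lower. MDM2, on chromosome 12, encodes the ligase that marks p53 for degradation. It measured 28.3, 37.2 and 30.3 CPM in NOZ replicates 1 to 3 and 39.5, 42.2 and 43.5 CPM in NOZ-R replicates 1 to 3. The lines did not overlap, although NOZ replicate 2 came close to the lowest NOZ-R library. The log2 fold change was 0.39 ± 0.0987 (SE, n = 3 each, edgeR's adjusted p = 0.00402). The call was lost with limma on log2(FPKM + 1) and log2(FPKM + 0.1), at an adjusted p of 0.0774 and 0.0737. PPM1D, the phosphatase WIP1 that switches off p53 and the damage kinases, stood at 19.8, 20.6 and 16.6 CPM against 24.5, 24.6 and 23.7 CPM. Its 3 NOZ-R libraries were all above NOZ, and the log2 fold change was 0.35 ± 0.0947 (SE, edgeR's adjusted p = 0.00615). That call was lost with scaling by library size alone (edgeR's adjusted p = 0.0617) and in both limma fits. MDM4, which binds p53 and blocks its activity, gave 45.3, 48.7 and 47.1 CPM in NOZ against 43.6, 39.8 and 40.2 CPM in NOZ-R. Its log2 fold change of -0.19 ± 0.0722 (SE, edgeR's adjusted p = 0.0364) lost the call without any 1 library except NOZ-R replicate 1, with an adjusted p of 0.0503 to 0.142, and with the replicate number as a block (adjusted p = 0.0586).

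The cell cycle genes of the list held 3 increases of over 2-fold and the largest decrease of an abundant transcript. Of the 7 genes of this role, 3 passed as higher and 1 as lower, 57.1% in all. Among all tested genes 60.2% passed. CDKN1A, on chromosome 6, encodes p21, the inhibitor of cyclin-dependent kinases through which p53 arrests cells. The NOZ libraries held 25.4, 23.1 and 30.1 CPM, the NOZ-R libraries 79.4, 78.6 and 78.0 CPM. The lines were far apart and NOZ-R varied little. The change was 3.02-fold, a log2 fold change of 1.59 ± 0.0878 (SE, n = 3 each, edgeR's adjusted p = 3.69e-09, and 2.34e-05 against a 2-fold change). GADD45A, a damage-induced protein that binds p21 and the replication clamp, rose from 54.7, 52.0 and 51.3 CPM to 123.2, 120.9 and 123.4 CPM. No library of either line lay near the other, and the log2 fold change was 1.22 ± 0.0603 (SE, edgeR's adjusted p = 1.25e-09). PLK2, a polo-like kinase of centriole duplication, went from 228.1, 221.9 and 221.2 CPM to 461.2, 483.6 and 474.4 CPM. Its 2.11-fold rise (edgeR's adjusted p = 5.92e-10) was not past the test against a 2-fold change (adjusted p = 0.171).

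CCNG1, cyclin G1, is a p53 target that brings a phosphatase to MDM2. It was the most abundant gene of the list in NOZ and moved against CDKN1A, from 495.1, 448.3 and 491.2 CPM to 214.1, 231.6 and 208.8 CPM. Even the highest NOZ-R library was only 0.517 of the lowest NOZ library. The log2 fold change was -1.13 ± 0.0597 (SE, n = 3 each, edgeR's adjusted p = 2.37e-09), with an adjusted p of 0.0588 against a 2-fold change. The other 3 genes of this role did not pass. FBXW7, the receptor subunit of a ligase for cyclin E, had a log2 fold change of 0.18 ± 0.0981, and PLK3, a stress-responsive polo-like kinase, 0.0011 ± 0.132 (SE). BTG2, an antiproliferative factor that promotes mRNA deadenylation, was at 1.25, 1.05 and 1.49 CPM in NOZ against 0.940, 0.929 and 1.01 CPM in NOZ-R. At 15 to 25 counts per library its log2 fold change of -0.39 ± 0.299 (SE, edgeR's adjusted p = 0.279) was not resolved.

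**Figure D2:**
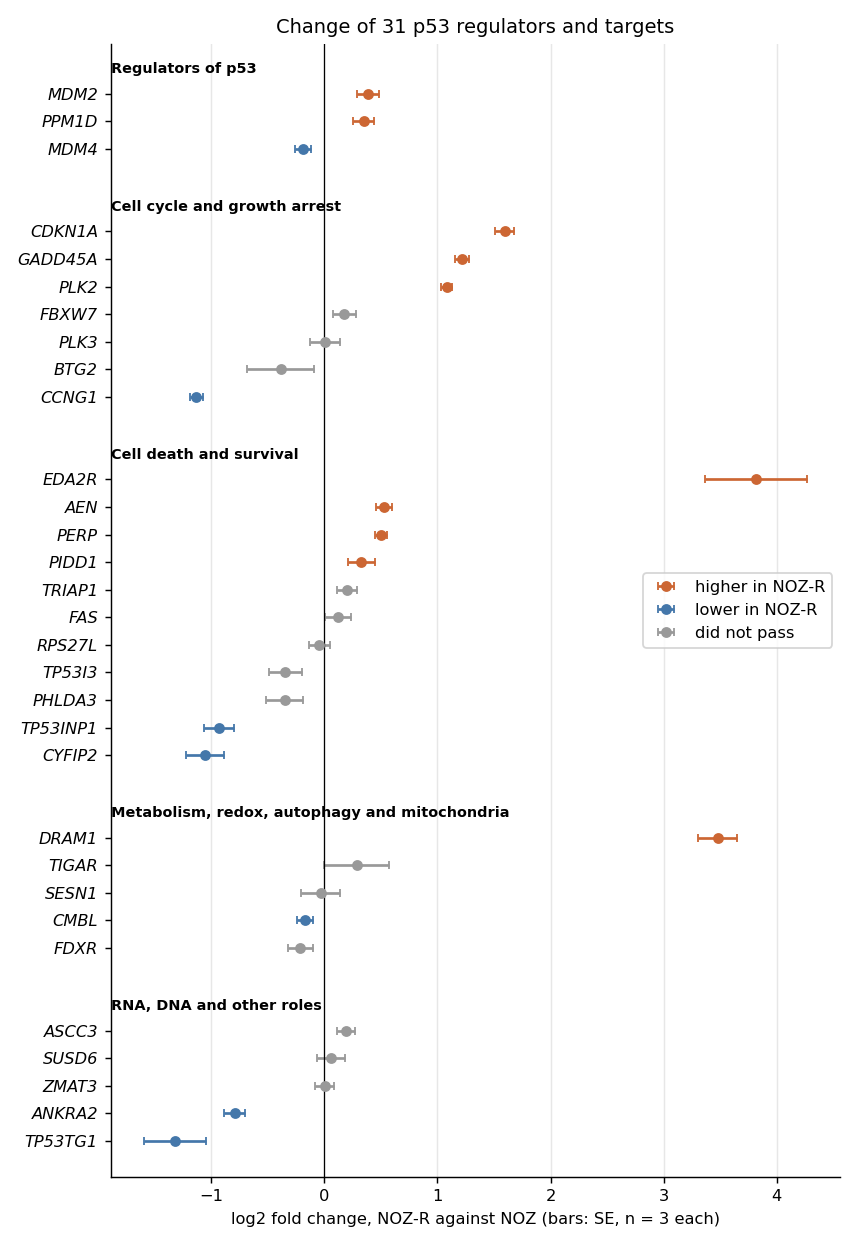
Log2 fold change of NOZ-R against NOZ for the 31 tested genes by role, with SE bars (n = 3 each) and colours for the edgeR call. EDA2R at 3.82 and DRAM1 at 3.48 lie farthest to the right, TP53TG1 at -1.32 and CCNG1 at -1.13 farthest to the left, and 14 grey genes did not pass.

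Of the 11 genes linked to cell death and survival, 4 passed as higher and 2 as lower, 54.5% in all, which is near the 60.2% of all tested genes. EDA2R, a death-domain-free receptor of the TNF receptor family on chromosome X, had 1, 3 and 2 counts in NOZ and 34, 28 and 22 counts in NOZ-R. In CPM this was 0.0499 to 0.166 against 1.48 to 1.88. Its log2 fold change of 3.82 ± 0.451 (SE, n = 3 each, edgeR's adjusted p = 6.66e-06) rests on these few counts. The gene passed the filter on low counts through NOZ-R alone, so it could be called only as higher. AEN, a nuclease that digests DNA and RNA in dying cells, went from 63.5, 56.3 and 63.3 CPM to 89.8, 88.7 and 85.1 CPM. The lines did not overlap, and the log2 fold change was 0.53 ± 0.0675 (SE, edgeR's adjusted p = 1.45e-05). PERP, a membrane protein of desmosomes and of p53-dependent death, rose 1.41-fold, from 155.7, 150.7 and 155.5 CPM to 212.3, 221.6 and 218.7 CPM (edgeR's adjusted p = 2.31e-06). The median of the 28 tested genes within 5 Mb of PERP was 0.53 on the log2 scale, beside its own change of 0.50.

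PIDD1, the scaffold that activates caspase-2, stood at 10.04, 10.8 and 8.67 CPM in NOZ against 11.3, 13.2 and 12.7 CPM in NOZ-R. The call (log2 fold change 0.32 ± 0.120, SE, edgeR's adjusted p = 0.0314) was lost without NOZ replicate 1 or 3 or NOZ-R replicate 2 or 3, with an adjusted p of 0.0544 to 0.106, and with scaling by library size alone (0.174). PIDD1 shares 107 exon bases with the abundant ribosomal gene RPLP2 on the opposite strand. RPLP2 was itself higher (log2 fold change 0.31, edgeR's adjusted p = 0.0194), and without strand the reads of the overlap cannot be assigned.

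TP53INP1, a stress-induced nuclear protein that promotes p53 phosphorylation and autophagy, fell. It measured 10.7, 11.4 and 10.3 CPM in NOZ against 6.52, 5.203 and 5.16 CPM in NOZ-R, with no overlap. The log2 fold change was -0.94 ± 0.133 (SE, n = 3 each, edgeR's adjusted p = 3.74e-05). CYFIP2, a subunit of the WAVE complex that controls actin, gave 6.14, 8.53 and 7.52 CPM against 3.32, 3.53 and 3.82 CPM, a log2 fold change of -1.05 ± 0.166 (SE, edgeR's adjusted p = 9.62e-05). It shares 62 exon bases with ADAM19 on the opposite strand, a gene with about 100 times its counts that was higher (log2 fold change 0.20).

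The death receptor gene FAS did not pass, at 15.2, 19.0 and 14.4 CPM in NOZ against 16.3, 18.2 and 18.6 CPM in NOZ-R. NOZ replicate 2 lay above all NOZ-R libraries, and the log2 fold change was 0.12 with it and 0.25 without it (edgeR's adjusted p = 0.0482). FAS shares 380 exon bases with ACTA2 on the opposite strand, which was lower (log2 fold change -0.46). Neighbours of FAS had a lower level on balance, with a median of -0.48 over 48 tested genes within 5 Mb. TP53I3, an oxidoreductase-like enzyme tied to oxidative stress, had a log2 fold change of -0.35 ± 0.143 (SE, edgeR's adjusted p = 0.0515), with an adjusted p of 0.00346 without NOZ replicate 2 and 0.0381 without NOZ-R replicate 2, and it passed with scaling by library size alone too. It shares 80 exon bases with FAM228B on the opposite strand, which did not pass (log2 fold change -0.21). PHLDA3, an inhibitor of AKT at the membrane, also stood at -0.35, with an adjusted p of 0.0735, or 0.0472 without NOZ replicate 2. TRIAP1, a mitochondrial lipid transfer protein that favours survival, measured 21.4 CPM ± 1.89 and 24.6 CPM ± 0.932 (SD, n = 3 each) and passed only without NOZ replicate 1 among the fits that left out 1 library (log2 fold change 0.27, edgeR's adjusted p = 0.0388). RPS27L, a relative of ribosomal protein S27 that affects MDM2 stability, measured 45.6 CPM ± 4.13 and 44.3 CPM ± 4.32 (SD, n = 3 each). These 2 values differ by less than the spread within each line.

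The 6 genes of metabolism and mitochondria were split between DRAM1 and little else. DRAM1, on chromosome 12, encodes a lysosomal membrane protein that links p53 to autophagy. It had 18, 22 and 18 counts in NOZ and 240, 198 and 171 counts in NOZ-R, or 0.899, 1.22 and 1.22 CPM against 13.3, 12.3 and 11.5 CPM. NOZ-R was about an order of magnitude above NOZ in every library. The change was 11.2-fold, a log2 fold change of 3.48 ± 0.173 (SE, n = 3 each, edgeR's adjusted p = 1.30e-09, and 2.85e-08 against a 2-fold change). CMBL, a hydrolase that activates some ester prodrugs, was the other called gene, from 115.7, 100.3 and 113.9 CPM to 93.2, 101.2 and 98.4 CPM. The lines overlapped through NOZ replicate 2, and the call (log2 fold change -0.17, edgeR's adjusted p = 0.0431) was lost without any 1 library except NOZ replicate 2 (adjusted p = 0.0693 to 0.185) and with the replicate block (adjusted p = 0.0631).

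SESN1, a sestrin that restrains mTORC1, had a mean of 4.99 CPM ± 0.968 for NOZ and 4.91 CPM ± 0.360 for NOZ-R (SD, n = 3 each). TIGAR, a phosphatase that lowers glycolytic flux, was at 1.60 CPM ± 0.450 and 1.97 CPM ± 0.475 (SD, n = 3 each), 22 to 42 counts per library, and its log2 fold change of 0.29 ± 0.287 (SE) was not resolved at this depth. FDXR, the mitochondrial ferredoxin reductase, had 15.4, 12.3 and 14.7 CPM in NOZ against 11.7, 12.6 and 12.3 CPM in NOZ-R. Its log2 fold change of -0.21 (edgeR's adjusted p = 0.117) became -0.31 (adjusted p = 0.0226) without NOZ replicate 2.

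In the last group, 2 genes fell and 3 did not pass. The share past the test was 40%, all lower, beside 60.2% of all tested genes, with 29.8% lower. ANKRA2, an ankyrin-repeat adaptor that binds class IIa histone deacetylases, went from 28.7, 27.1 and 27.3 CPM to 15.4, 14.8 and 17.8 CPM. The lines were well separated, with a log2 fold change of -0.79 ± 0.0917 (SE, n = 3 each, edgeR's adjusted p = 5.37e-06). It shares 244 exon bases with UTP15 on the opposite strand, which was higher (log2 fold change 0.24). TP53TG1, a p53-induced long noncoding RNA on chromosome 7, fell from 39, 44 and 33 counts to 14, 17 and 12 counts. In CPM this was 1.95, 2.44 and 2.23 against 0.774, 1.05 and 0.805, a log2 fold change of -1.32 ± 0.275 (SE, edgeR's adjusted p = 0.000945). ZMAT3, an RNA-binding regulator of splicing and a strong p53 target in many cell types, stood at 19.8, 20.7 and 19.2 CPM in NOZ and at 20.1, 20.5 and 19.2 CPM in NOZ-R, and the lines overlapped. The log2 fold change was 0.0019 ± 0.0851 (SE). SUSD6, a sushi-domain membrane protein, had 0.06 ± 0.123 (SE). ASCC3, a helicase of alkylation repair and ribosome quality control, had 0.19 ± 0.0819 (SE, edgeR's adjusted p = 0.0569) and passed without NOZ replicate 2 (adjusted p = 0.00132), without NOZ-R replicate 1 (0.0205) and with the replicate block (0.0481), among other settings.

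Levels between genes were compared as FPKM (fragments scaled by gene length and by the library total), which the authors deposited without correction for composition. CCNG1 was the highest in NOZ, at 161.2 FPKM ± 8.43, ahead of PLK2 at 50.3 ± 0.731, PERP at 38.3 ± 0.630 and GADD45A at 28.5 ± 0.907 (SD, n = 3). In NOZ-R the order at the top was PLK2 at 97.2 FPKM ± 1.94, CCNG1 at 67.3 ± 3.59, GADD45A at 60.8 ± 0.843 and PERP at 49.5 ± 0.874. CDKN1A moved from rank 9 of the list, at 9.12 FPKM ± 1.24, to rank 5, at 25.1 ± 0.326, and DRAM1 from rank 29 to rank 16. Neighbours in the middle of the order, such as AEN at 10.7 ± 0.687 and ANKRA2 at 10.4 ± 0.292 in NOZ, did not differ beyond their spread. In both lines 8 genes were under 1 FPKM (SPATA18 included). The gene length behind these values was 29313 bases for FAS and 8825 for RPS27L against 1411 for TRIAP1, so the order depends on the lengths the authors used.

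The position of the genes was set beside their changes, since the median change differed between chromosomes. The median log2 fold change of tested genes was 0.36 on chromosome 6, which carries CDKN1A, PERP, SESN1 and ASCC3, -0.58 on chromosome 10 (FAS), -0.44 on X (EDA2R) and -0.26 on chromosome 7 (TP53TG1). Chromosome 5 had a median of -0.02 and held both the rise of PLK2 and the decreases of CCNG1, CYFIP2, ANKRA2 and CMBL. All 17 calls kept their sign when the chromosome median was subtracted, with CDKN1A at 1.24 and PERP at 0.14. How many calls among all tested genes did so was not counted. The part of the chromosome medians in the changes was not tested otherwise.

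**Figure D3:**
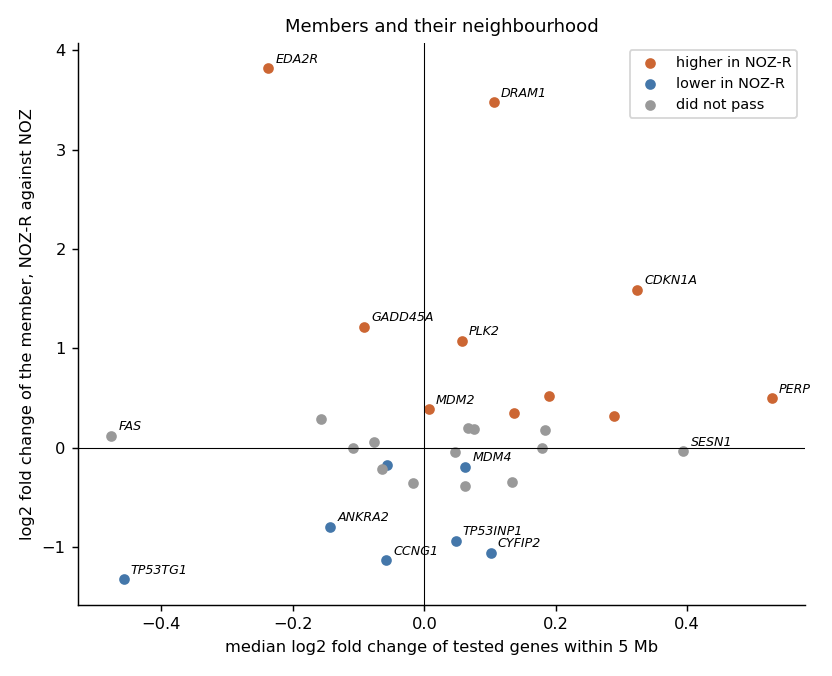
Log2 fold change of each tested gene of the list (vertical) against the median log2 fold change of the other tested genes within 5 Mb (horizontal), coloured by the edgeR call. PERP, with neighbours at 0.53, and TP53TG1, with neighbours at -0.46, lie toward the direction of their surroundings, whereas EDA2R, GADD45A and CCNG1 differ from theirs by more than 1.

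Other genes of the pathway were taken from 6 further lists with 142 genes, of which 131 were tested. Among p53 modifiers and cofactors, 11 of 31 were higher and 7 lower, 58.1% in all beside 60.2% of all tested genes. ATM, a kinase that senses double-strand breaks, went from 133.1 CPM ± 6.61 in NOZ to 94.4 CPM ± 5.09 (SD, n = 3 each, edgeR's adjusted p = 1.58e-05), and ATR, which senses stalled forks, from 97.1 CPM ± 2.89 to 55.7 CPM ± 3.77 (edgeR's adjusted p = 2.67e-07). The checkpoint kinase gene CHEK2 fell by 0.33 on the log2 scale. Other kinases of the list that act in the damage response, named after their values were seen, did not pass, with log2 fold changes of -0.06 for CHEK1, 0.16 for HIPK2 and 0.13 for DYRK2. The p53 relative TP73 rose by 1.21 and PML, which organises nuclear bodies that hold p53 and is also induced by interferon, by 1.56. TRIM24, a ligase that degrades p53, fell by 1.05.

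Death effectors among the other targets also went both ways, with 5 of 10 tested higher and 3 lower, 80% in all. Among all tested genes 30.4% were higher and 29.8% lower, 60.2% in all. PMAIP1, the BH3-only protein NOXA, rose from 178.9 CPM ± 13.1 in NOZ to 442.0 CPM ± 19.96 (SD, n = 3 each, edgeR's adjusted p = 9.03e-10), and the decoy receptor gene TNFRSF10D had a log2 fold change of 1.02. The pore-forming BAX fell by 0.26 on the log2 scale, the apoptosome gene APAF1 by 0.65 and CDIP1 by 0.50. BBC3, the BH3-only protein PUMA, stood at 5.14 CPM ± 0.645 and 4.09 CPM ± 0.990 (SD, n = 3 each) and did not pass (edgeR's adjusted p = 0.149). In DNA repair and arrest, 5 of 10 were higher and 3 lower, also 80% in all beside 60.2% of all tested genes. The nucleotide excision repair sensors moved apart, with DDB2 at 0.42 ± 0.0722 and XPC at -0.72 ± 0.0986 (SE, edgeR's adjusted p = 0.000198 and 2.73e-05). The antiproliferative gene BTG1 had 0.50 and the ligase gene TRIM32 -0.31.

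The 16 tested genes of metabolism and stress had 6 higher and 4 lower, 62.5% in all, which is near the 60.2% of all tested genes. SESN2, the stress-induced sestrin, had a log2 fold change of 0.94 ± 0.116 (SE, edgeR's adjusted p = 9.62e-06) beside -0.03 ± 0.170 for SESN1, and DDIT4, an mTORC1 inhibitor, had 2.93. PANK1, a kinase of coenzyme A synthesis, fell by 1.01 and CPT1C by 0.69. Secreted, surface and signalling targets had 24 of 36 higher and 7 lower, 86.1% in all. Among all tested genes 30.4% were higher and 29.8% lower. The median of these targets was 0.53 against -0.01 for all tested genes. The lower count was 3 without NOZ replicate 1 and 4 without NOZ-R replicate 1, where 27.0% and 26.1% of all tested genes were lower. GDF15, a stress cytokine, went from 18.7 CPM ± 0.846 in NOZ to 39.3 CPM ± 1.36 (SD, n = 3 each, edgeR's adjusted p = 6.91e-08). COBLL1 rose from 10 counts over NOZ to 100.4 CPM ± 9.01 (SD, n = 3). TLR3, a sensor of double-stranded RNA that interferon also induces, rose from 3 counts over NOZ to 6.69 CPM ± 0.482 (SD, n = 3). COBLL1 and TLR3 passed the filter on low counts through NOZ-R alone, so they could be called only as higher. KITLG, the ligand of KIT, fell by 0.90 and ARHGEF3 by 0.71. Several genes of these lists, such as DDIT4 and SESN2, are known to respond to other stress pathways as well, whose part was not tested.

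Cell cycle genes that p21 is known to lower through the RB family and the DREAM repressor complex were set beside CDKN1A. Of 28 tested, 17 passed as lower and 3 as higher, 71.4% in all. Among all tested genes 29.8% were lower and 30.4% higher, 60.2% in all. The median was -0.27 against -0.01 for all tested genes. CDK1, the mitotic kinase, went from 127.0 CPM ± 17.1 in NOZ to 84.2 CPM ± 5.99 (SD, n = 3 each, edgeR's adjusted p = 6.06e-05), and its partner CCNB1 from 447.1 CPM ± 34.0 to 351.8 CPM ± 17.3. The log2 fold change of CDK1 was -0.59, beside a median of -0.58 on its chromosome 10. The 18 tested genes within 5 Mb of CDK1 had a median of -0.23. The part of its position in the change was not tested. The phosphatase gene CDC25C fell by 0.75 and the kinesin gene KIF20A by 0.74 on the log2 scale. CDC20 and BIRC5, of the same class, had a log2 fold change of 0.21 each in the other direction. The number higher was 5 without NOZ replicate 2, 1 without NOZ-R replicate 1, and 0 with scaling by library size alone. Of all tested genes 31.4%, 27.2% and 23.1% were higher in these settings, in that order. None of the 28 passed a test against a 2-fold change, which 8.96% of all tested genes passed.

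**Figure D4:**
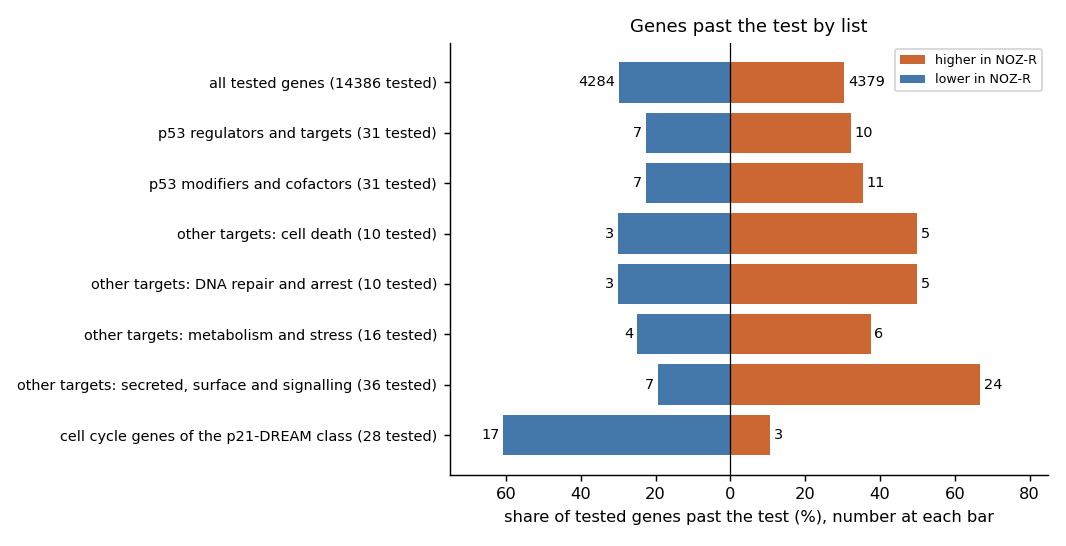
Share of tested genes past the edgeR test in each list, lower in NOZ-R to the left and higher to the right, with the number of genes at each bar. The 31 tested p53 regulators and targets, with 10 higher and 7 lower, sit close to the bar of all 14386 tested genes. That bar holds 30.4% higher and 29.8% lower. The secreted and signalling targets extend to the right with 24 of 36, and the cell cycle genes to the left with 17 of 28.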

How the data were processed

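Raw whole-number counts per gene and an FPKM table were deposited by the authors. The submitters' processing notes name fastp 0.22.0, a read trimmer, and GRCh38. Aligner, counter, strand setting and annotation: not given in the sources used here. By the deposited values, in FPKM each value equals count over total count and 1 fixed length per gene. Samples were grouped by title. Genes were kept with filterByExpr, scaled with TMM, and NOZ-R compared with NOZ by edgeR 4.0.16 (quasi-likelihood, R 4.3.3) with Benjamini-Hochberg adjustment over 14386 genes. The SE is the log2 fold change over the square root of F. CPM uses TMM-scaled library sizes. Alternatives were other scaling (DESeq2 size factors, upper quartile, library size only), no filter or a 1 CPM filter, the replicate number as a block, a test against a 2-fold change, an adjusted p below 0.01, leaving out each library, the DESeq2 1.42.0 Wald test, and limma 3.58.1 on log2(FPKM + 1) and log2(FPKM + 0.1). Positions came from GENCODE 29, promoter sequence from RefSeq. The fitting code was tested on simulated data. The genes, lists and tests were chosen with earlier results of these data known. All 32 genes are accounted for; from each further list the 2 largest increases and decreases past the test with a mean of at least 1 CPM are named, plus CDK1, CCNB1, PMAIP1, BBC3, BAX, DDB2, XPC, SESN2, GDF15, ATM and CHEK2. Replicate libraries differed beyond sampling noise (mean chi-square per gene 2.17 to 11.3) and all 6 were kept. The pairs with NOZ replicate 2 had the highest values, 11.3 and 9.77. NOZ replicates 1 and 3 had 2.17, and the NOZ-R pairs 2.68 to 4.06.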

Additional observations from a re-analysis of the deposited data

How the results depend on the processing

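Of the 17 called genes, 4 (CDKN1A, GADD45A, EDA2R and DRAM1) passed in all 17 alternative settings with a test, 8 lost the call in the test against a 2-fold change alone, and 5 (MDM2, MDM4, PPM1D, PIDD1, CMBL) also elsewhere. EDA2R passed the filter on low counts through NOZ-R alone, so with that filter it could be called only as higher. Of the 14 genes of the list that did not pass, 7 passed in at least 1 setting. How many of all tested genes kept, lost or gained a call over these settings was not counted. Among all genes tested, the share called lay between 29.2% (no filter) and 63.1% (1 CPM filter) over the alternatives other than library size only and the 2-fold test. Over fits leaving out 1 library, 9 to 12 genes of the list were higher and 5 to 9 lower, with 12 and 9 reached without NOZ replicate 2. Of all tested genes, 27.0% to 31.4% were higher and 25.7% to 29.3% lower in these fits. Limma on log2(FPKM + 1) and on log2(FPKM + 0.1), which lack a composition correction, gave 7 higher and 11 lower, beside 22.4% and 36.8%, and 22.5% and 37.0%, of all tested genes. The test against a 2-fold change is stricter by construction, and 5.89% and 3.07% of all tested genes passed it upward and downward. Upward and downward counts were 4 and 0 for the list and 1 and 0 for modifiers and cofactors. They were 1 and 0 for death targets, 0 and 0 for repair and arrest, and 1 and 0 for metabolism. For secreted and signalling targets they were 5 and 0, and for cell cycle genes 0 and 0. Repair and arrest targets had 3 higher with library size only, 2 with limma on log2(FPKM + 1), 2 on log2(FPKM + 0.1) and 3 at an adjusted p below 0.01. Of all tested genes 23.1%, 22.4%, 22.5% and 24.9% were higher in these settings, in that order. Secreted and signalling targets had 3 lower with the DESeq2 Wald test, 3 at 0.01, and 3 to 7 leaving out 1 library. Of all tested genes 17.4% were lower with the Wald test and 23.6% at 0.01. Cell cycle genes had 0 higher with library size only, 0 with limma under either pseudocount, 0 at 0.01, and 1 to 5 leaving out 1 library. The shares of all tested genes that were higher in these settings are those given above. The cause of these shifts was not tested. With the replicate number as a block, 11 genes of the list were higher and 5 lower, beside 30.1% and 29.1% of all tested genes. It moved the calls of MDM4, CMBL and ASCC3 and no other of the list. Same-numbered libraries did not deviate together (correlations 0.13, -0.036 and -0.094), so the numbers were not taken to pair the samples.

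Genes near 0 changed sign without passing. PLK3 was -0.13 with library size only, -0.014 with upper quartile factors, -0.0047 with no filter, -0.0046 with the 1 CPM filter, -0.090 and -0.12 with limma on log2(FPKM + 1) and log2(FPKM + 0.1), -0.0035 with the replicate block, -0.049 without NOZ replicate 2 and -0.089 without NOZ-R replicate 3, the last in a range of -0.089 to 0.067 leaving out 1 library. ZMAT3 was -0.13, -0.012, -0.0036, -0.0037, -0.081 and -0.12 under the same first settings, in that order, and -0.014 without NOZ replicate 3 or NOZ-R replicate 2, in a range of -0.014 to 0.032 leaving out 1 library. SUSD6 was -0.073 with library size only and -0.044 and -0.065 with limma. FAS was -0.0067 with library size only. RPS27L was 0.034 without NOZ replicate 2 and 0.011 without NOZ-R replicate 3, and SESN1 0.12 without NOZ replicate 2 and 0.018 without NOZ-R replicate 1. Depth limits EDA2R, TP53TG1, TIGAR and BTG2, which had at most 44 counts in any library. On the same strand, MDM2 shares 439 exon bases with AC025423.2, PHLDA3 598 with AC096677.2 and TIGAR 1711 with AC008012.1. MDM2 also shares 785 with AC025423.4 on the opposite strand. These partner genes are not listed by those names in the deposited counts. The part of these overlaps in the values was not tested.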

Other observations

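The noncoding RNA TP53TG1 lies about 0.27 Mb from ABCB1, the drug efflux pump gene, measured between gene centres. NOZ held 3 counts of ABCB1 in all 3 libraries together, whereas NOZ-R stood at 12663 CPM ± 506 (SD, n = 3). ABCB1 passed the filter on low counts through NOZ-R alone, so it could be called only as higher. The 7 other tested genes within 1 Mb went the way of TP53TG1 or did not pass. Of all tested genes 29.8% were lower. The median log2 fold change was -0.46 over the 22 tested genes within 5 Mb of TP53TG1 and -0.26 on chromosome 7. DMTF1, CROT, SLC25A40, DBF4, ADAM22 and SRI were lower, with log2 fold changes of -0.55 to -1.02 (edgeR's adjusted p = 4.81e-06 to 0.000475), and TMEM243 had -0.22 (adjusted p = 0.104). CROT, a peroxisomal enzyme of fatty acid breakdown whose gene is 0.037 Mb from TP53TG1, fell from 17.9 CPM to 11.8 CPM. Within this stretch, only ABCB1 was higher among the tested genes with a position, which 12543 of the 14386 tested genes had.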
